A study of Mus musculus with 9 samples.

Results

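The genes described here encode the subunits of the mitochondrial oxidative phosphorylation system (OXPHOS), read in the skin of 3 kinds of mice. They were chosen by symbol alone: the mitochondrially encoded mt-Nd, mt-Co, mt-Cytb and mt-Atp genes, the nuclear Nduf subunit genes, Sdha to Sdhd, and all genes whose names begin with Uqcr, Cox4 to Cox8 or Atp5. This gave 103 of the 49585 genes in the tables, 13 encoded by the mitochondrial genome and 90 by the nucleus. Complex I had 42 of them (7 mitochondrial), complex II had 4 (none mitochondrial), complex III had 11 (1 mitochondrial), complex IV had 23 (3 mitochondrial) and complex V had 23 (2 mitochondrial). Of the 103, 6 are predicted copies with no annotated transcript (Uqcrh-ps1, Uqcrh-ps2, Atp5k-ps2, Atp5l-ps1, Atp5l-ps2 and Atp5l2-ps), and Cox7b2 and Cox8c, forms known from testis, had 0 reads in the 9 libraries. The other 95 had reads and passed the filter on low counts. Atp5s and Atp5sl match by name but are known as assembly factors, not as parts of the ATP synthase.

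RNA was sequenced from whole skin of untreated mice in 3 groups of 3 libraries: wild type C57BL/6, wild type BALB/c, and IL-6 -/- mice of strain C57BL/6, which carry a deletion of the cytokine interleukin-6. Per the labels, mice came from the Jackson Laboratory at 4 to 5 weeks of age, had 2 weeks to acclimate, entered the study when 6 weeks old, with shaving on day 0 and skin taken on day 8. The protocol lists 3 C57BL/6, 3 BALB/c and 6 IL-6 -/- mice for 3 libraries each and does not tie a library to a mouse, and the p-values thus reflect spread among libraries that may be technical. Each C57BL/6 library held 6083876 to 6882193 exon reads, each BALB/c library 6115739 to 6242332 and each library labelled IL-6 KO 3843953 to 4476346. Il6 reads numbered 2, 1 and 0 in C57BL/6, 0, 2 and 0 in BALB/c, and 6, 24 and 1 under the IL-6 KO label. The counts were not lower under that label, so that group is called KO-labelled throughout. Counts per gene do not show which part of Il6 gave these reads, and the label was not tested.

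The OXPHOS system passes electrons from NADH (complex I) and succinate (complex II) through complex III to oxygen at complex IV, and complex V uses the resulting proton gradient to make ATP. Complexes I, III, IV and V are built from subunits of both genomes, and complex II from nuclear subunits only. Several nuclear subunits of complex IV come in tissue forms, of which those of skeletal and heart muscle are the best known, and skin as sampled whole can hold the thin muscle layer beneath it.

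Reads of the mitochondrial members can also come from copies of mitochondrial DNA in the nuclear genome. Of the 13, 7 had under 80% of their exon reads placed uniquely, and each of those 7 aligned to at least 1 annotated nuclear pseudogene at 95% identity or more over at least 100 bases. On GRCm38, 7 such pseudogenes lie together on chromosome 1 at chr1:24611535-24616197, on the minus strand. The first 60 bases of mt-Co2, the subunit of complex IV that takes electrons from cytochrome c, are shown because its copy Gm28661 (chr1:24614885-24615565) is identical to it over 681 aligned bases, so no read inside that stretch can be placed by sequence. The stretch of mt-Co1, the catalytic subunit of complex IV, is shown beside its copy Gm13340 on chromosome 2 (chr2:22588103-22589647, minus strand), which had 97.6% identity over 1545 bases with 37 mismatches. Capitals mark mismatches, which are C54A and A60G, counted from base 1 at the 5′ end of mt-Co1, with the base of mt-Co1 first.
mt-Co2, bases 1 to 60, chrM:7013-7072, plus strand: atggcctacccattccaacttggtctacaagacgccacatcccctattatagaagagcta
mt-Co1, bases 24 to 83, chrM:5351-5410, plus strand: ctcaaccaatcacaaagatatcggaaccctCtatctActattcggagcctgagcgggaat
Gm13340, the aligned bases: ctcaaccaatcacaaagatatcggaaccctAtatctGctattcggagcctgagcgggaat

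The unique share of reads, given for the 9 libraries together, was 0.130% for mt-Co2, 0.218% for mt-Atp6, 0.0577% for mt-Co3, 0.903% for mt-Nd3, 4.94% for mt-Nd4l, 53.1% for mt-Nd4 and 67.1% for mt-Co1. The copies of mt-Atp6 (Gm10925), mt-Co3 (Gm28437), mt-Nd4l (Gm10222) and mt-Nd4 (Gm28439) were identical to them over 678, 783, 294 and 876 bases. The other 6, mt-Nd1, mt-Nd2, mt-Atp8, mt-Nd5, mt-Nd6 and mt-Cytb, had 99.5% to 100% unique reads. For this reason total exon reads were used for all members, and values of the 7 genes with copies are uncertain in how reads were shared.

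The unique share differed between groups for some of the 7. For mt-Nd4l, a small membrane subunit of complex I, it was 0.336%, 0.313% and 0.206% in C57BL/6, 0.521%, 0.567% and 0.370% in BALB/c, and 27.5%, 27.3% and 26.9% in KO-labelled skin. The last group stood far above the others, with no overlap. For mt-Co2 it was 0.0318%, 0.0357% and 0.0300% in C57BL/6, 0.100%, 0.286% and 0.0848% in BALB/c and 0.261%, 0.314% and 0.304% in KO-labelled skin. C57BL/6 lay below the other groups, and BALB/c overlapped with the KO-labelled libraries. The tables KO-labelled also differ in how their deposited Expression value was filled, and the part of a difference in table making was not tested.

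**Figure D1:**
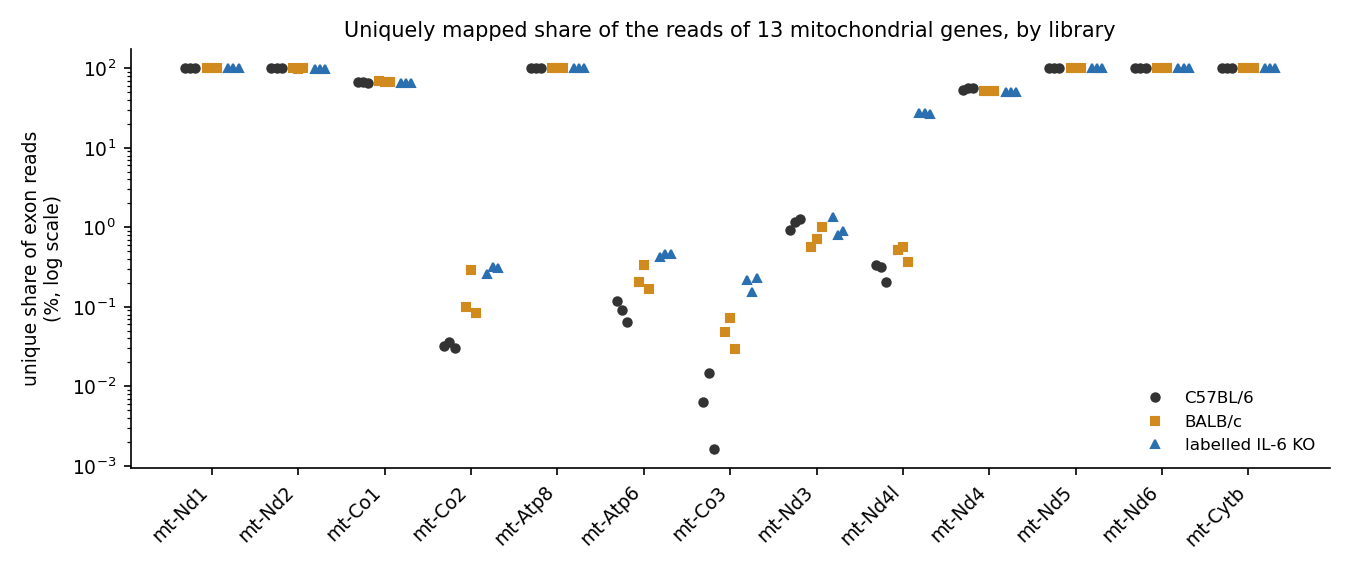
Uniquely mapped share of exon reads (percent, log axis) of the 13 mitochondrially encoded genes, in the order of their start positions, with 1 point for each of 9 libraries. For mt-Nd4l the KO-labelled libraries sit at 26.9% to 27.5% and the other 6 libraries at 0.567% or less, while mt-Nd1, mt-Atp8, mt-Nd5, mt-Nd6 and mt-Cytb sit at or near 100% in each library.

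For nuclear members, the start-site windows that RefSeq gives on GRCm38.p6 were searched, from 250 bases upstream to 50 downstream. Windows were found for 69 of the 90, 75 windows in all. The site of NRF1, a factor known to bind upstream of many respiratory chain genes, was searched on both strands as its exact palindrome. This site was present in 6.67% of the member windows, in 0.971% of all 32851 windows and in 1.33% of the 21263 windows of protein-coding genes. The 5 genes with it are shown because they span complexes I, III, IV and V, with the palindrome in capitals and 10 bases on either side.
Ndufa11, complex I, chr17:56717692-56717721, plus strand: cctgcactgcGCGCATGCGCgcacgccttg
Uqcrc1, complex III, chr9:108936668-108936697, plus strand: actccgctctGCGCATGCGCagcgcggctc
Cox6a1, complex IV, chr5:115349101-115349130, minus strand: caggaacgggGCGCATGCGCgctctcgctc
Atp5k, complex V, chr5:108434430-108434459, minus strand: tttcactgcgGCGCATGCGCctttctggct
Atp5g2, complex V, chr15:102671070-102671099, minus strand: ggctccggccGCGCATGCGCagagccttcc

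Other motifs were searched in the same windows on both strands. The ETS site CCGGAAGT, bound by GABPA, was in 6.67% of member windows (Ndufs3, Uqcrh, Uqcr11, Atp5h and Cox8a) against 3.89% of all windows. The estrogen-related receptor site TCAAGGTCA was in 2.67% (Atp5g3 and Sdhd) against 0.423%. The core pattern of MEF2, known from muscle genes, was in 1.33% (Cox5b) against 3.69%. The E-box CANNTG was in 69.3% against 72.3%. Over the windows of protein-coding genes alone, the shares were 5.15% for the ETS site and 0.334% for the estrogen-related receptor site. For MEF2 and the E-box they were 3.47% and 69%, so the ETS and E-box shares of the members lay near those of protein-coding genes. A match describes letters only. The 120 bases upstream of a pair of muscle forms and of their partners are shown because the muscle form and its partner gave unlike values in the comparisons below, with E-boxes in capitals. Cox6a2 had no window.
Cox7a1, muscle form, chr7:30184051-30184170, plus strand: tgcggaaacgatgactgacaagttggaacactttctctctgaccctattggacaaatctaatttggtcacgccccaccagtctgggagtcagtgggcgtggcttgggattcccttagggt
Cox7a2, partner form, chr9:79759854-79759973, minus strand: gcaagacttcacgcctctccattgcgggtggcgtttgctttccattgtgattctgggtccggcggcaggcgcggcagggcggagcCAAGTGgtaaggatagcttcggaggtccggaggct
Cox8b, muscle form, chr7:140900447-140900566, minus strand: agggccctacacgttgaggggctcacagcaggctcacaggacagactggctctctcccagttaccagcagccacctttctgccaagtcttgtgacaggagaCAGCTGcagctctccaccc
Cox8a, partner form, chr19:7217617-7217736, minus strand: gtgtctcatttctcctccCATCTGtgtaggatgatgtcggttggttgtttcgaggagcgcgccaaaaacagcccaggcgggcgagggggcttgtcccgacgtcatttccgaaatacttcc

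Together the members took a large share of the reads. The 13 mitochondrial members held 6.06%, 5.70% and 8.96% of exon reads in C57BL/6 (6.91% ± 1.79, SD, n = 3), 12.3%, 9.01% and 8.50% in BALB/c (9.94% ± 2.07) and 4.43%, 4.51% and 4.04% in KO-labelled skin (4.33% ± 0.25). The KO-labelled libraries were below the other 6, whereas C57BL/6 and BALB/c overlapped. The nuclear members held 1.27%, 1.25% and 1.61% in C57BL/6 (1.38% ± 0.20), 1.77%, 1.53% and 1.49% in BALB/c (1.60% ± 0.15) and 0.990%, 0.953% and 0.996% in KO-labelled skin (0.979% ± 0.023). The order was the same as for the mitochondrial members, again with overlap only between C57BL/6 and BALB/c. In bulk skin, fewer cells of a type and less RNA per cell cannot be told apart.

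The ratio between the reads of the 2 genomes also differed. Mitochondrial reads per nuclear member read came to 4.96 ± 0.53 in C57BL/6, 6.17 ± 0.67 in BALB/c and 4.42 ± 0.34 in KO-labelled skin (SD, n = 3 each). The lowest BALB/c library, at 5.68, was above the highest C57BL/6 library, at 5.56, and above the highest KO-labelled library, at 4.73. C57BL/6 and the KO-labelled libraries overlapped. No test was run on these sums, because the members were chosen with earlier results known.

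Reads of skeletal muscle genes were also lowest in the KO-labelled libraries, but between the wild types the order of their means was opposite to that of the members. The 20 muscle markers listed, such as Acta1, Ckm and Myh4, held 9.25% ± 2.02 of exon reads in C57BL/6, 6.20% ± 2.17 in BALB/c and 1.503% ± 0.14 in KO-labelled skin, and none of the 20 was at 0 in any group. Their summed level was 74060 to 130000 CPM (read counts relative to library size, scaled by edgeR's TMM factors) in C57BL/6, 36770 to 76970 in BALB/c and 13250 to 15210 in KO-labelled skin. Without the reads of these 20 genes in the total, the mitochondrial share was 7.65% ± 2.16 in C57BL/6, 10.6% ± 1.94 in BALB/c and 4.39% ± 0.26 in KO-labelled skin, and the order of the means was the same. Of the 6 wild type libraries, BALB/c replicate 1 had the lowest muscle share, 3.70%, and the highest mitochondrial share.

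**Figure D2:**
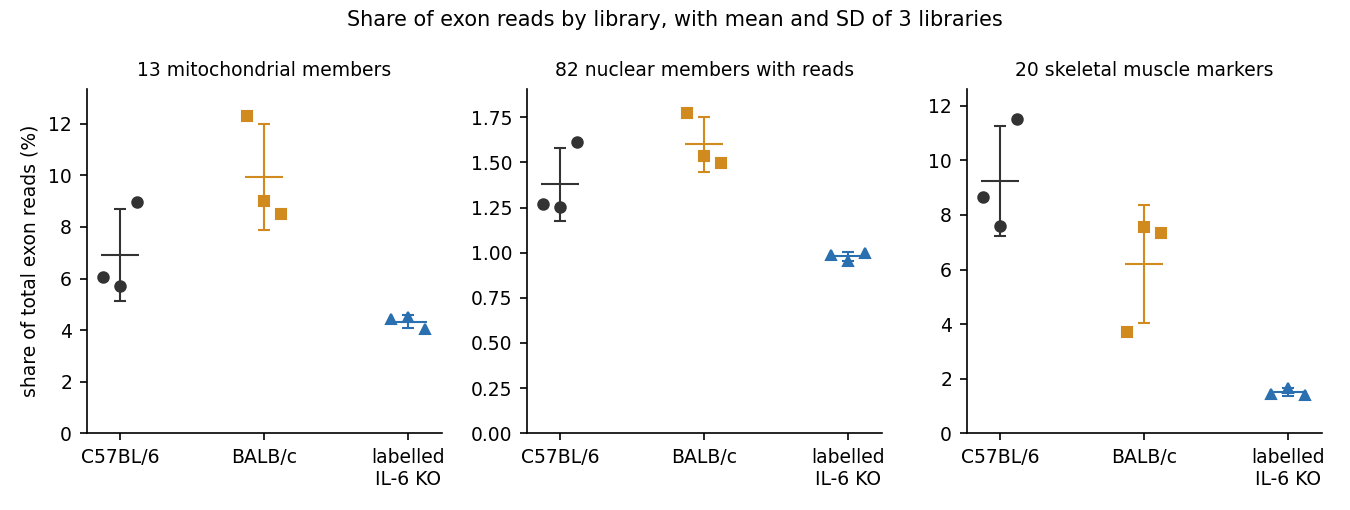
Share of total exon reads (percent) in the 13 mitochondrial members, the 82 nuclear members with reads and 20 skeletal muscle markers, with 1 point for each library and a bar at the mean ± SD of 3 libraries. The KO-labelled libraries lie lowest in each panel (4.04% to 4.51%, 0.953% to 0.996% and 1.41% to 1.67%), and BALB/c replicate 1 is highest for the mitochondrial members (12.3%) but has the lowest muscle share of the 6 wild type libraries (3.70%).

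Sums over each complex put these shares in terms of CPM. In the KO-labelled libraries the mean summed CPM was 0.53 of that in C57BL/6 for the mitochondrial and 0.61 for the nuclear members of complex I, 0.53 for complex II, and 0.48 and 0.64 for complex III. For complex IV the ratios were 0.57 and 0.67, and for complex V 0.70 and 0.67. Against BALB/c the mitochondrial ratios were lower, from 0.38 in complex III to 0.46 in complex V, and the nuclear ones ran from 0.51 in complex II to 0.64 in complex V. BALB/c over C57BL/6 was 1.26 to 1.53 for the mitochondrial and 1.04 to 1.18 for the nuclear sums.

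Levels per length of exon (RPKM, from the TMM-scaled CPM) set the genomes far apart. In C57BL/6 the median over the 13 mitochondrial members was 4470 RPKM, from 1610 for mt-Nd5, a proton-pumping subunit of complex I, to 14754 for mt-Co1. The median over the 82 nuclear members was 98.7 RPKM, from 1.01 for Cox6b2, a form known from testis, to 386 for Atp5a1, the alpha subunit of the ATP synthase. The nuclear medians by complex were 67.6 for I, 100 for II, 156 for III, 134 for IV and 120 for V. In the KO-labelled libraries the mitochondrial median was 2663 RPKM and the nuclear median 63.6, with mt-Nd5 and mt-Co1 again the lowest and highest mitochondrial genes. The highest nuclear member was then Cox8a, the ubiquitous form of subunit 8, at 248.9 RPKM, whereas in BALB/c it was Cox8b, the muscle form, at 493.

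BALB/c was compared with C57BL/6 first, since both are wild type and differ in strain. None of the 95 members passed edgeR's quasi-likelihood test at an adjusted p under 0.05 (Benjamini-Hochberg over 14415 genes), where 3.41% of all genes tested did (1.63% higher and 1.78% lower in BALB/c). At an unadjusted p under 0.05 there were 13, a count for which the share of all genes was not taken. DESeq2 called 2 of the 95, where it called 7.18% of all genes. These 2 were Ndufa4, a subunit now placed in complex IV, and mt-Nd3, of complex I, both with higher values in BALB/c. The log2 fold change was above 0 in 83 of 95, with a median of 0.40 over the 13 mitochondrial and 0.16 over the 82 nuclear members, against -0.01 over all genes. In 10 members each BALB/c library was above each C57BL/6 library, beside 14.6% of all genes.

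The 2 genes called by DESeq2 alone had separate groups. Ndufa4 stood at 201.7, 197.8 and 253.7 CPM in C57BL/6 skin and at 321.1, 318.6 and 291.0 CPM in BALB/c, a log2 difference of 0.51 ± 0.15 (SE), adjusted p = 0.114 by edgeR. Its BALB/c values also had the narrower range. mt-Nd3 stood at 645.0, 528.1 and 980.1 CPM in C57BL/6 skin and at 1358, 1178 and 1012 in BALB/c (log2 0.72 ± 0.25, edgeR adjusted p = 0.155), again with no overlap. Atp5g1, which encodes the c subunit of the ATP synthase rotor, had the lowest value of the members, log2 -0.53 ± 0.23 with an edgeR adjusted p of 0.239, and BALB/c and C57BL/6 overlapped. The unique share of its reads was 53.4%, 57.8% and 52.2% in C57BL/6, 36.3%, 36.7% and 36.9% in BALB/c and 54.9%, 57.4% and 59.3% in KO-labelled skin. BALB/c stood below the other groups, and with unique exon reads Atp5g1 was called lower in BALB/c (-1.07, edgeR adjusted p = 0.0286).

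One BALB/c library stood apart from its group. Replicate 1 had the highest CPM of all 9 libraries in 46 of 95 members, among them 12 of the 13 mitochondrial ones. It also held 765.9 CPM of Ucp1, the uncoupling protein of brown fat, against 1.16 and 16.2 in the other BALB/c libraries and 0 reads in C57BL/6 and in KO-labelled skin. Cidea, a lipid droplet protein of brown fat, was at 240.7 CPM there and between 5.82 and 40.5 in the other 8. The rest of the brown adipocyte list was mixed. Dio2 was highest there (18.1 CPM), and Ppargc1a was at 18.5 CPM beside 16.3 in BALB/c replicate 2. Elovl3, at 50.3 CPM, was below KO-labelled replicates 1 and 3 (73.8 and 85.1), and Zic1, at 6.21 CPM, was the lowest of the 9 libraries. The 6 brown adipocyte markers summed to 1100 CPM in that library and to between 54.0 and 120.4 in the rest, and the 9 white adipocyte markers to 6308 against 555.3 to 3727. The part of fat in the values of this library was not tested.

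C57BL/6 replicate 3 was the highest library in 42 members, 41 of them nuclear, and had the highest muscle sum, 130000 CPM. The KO-labelled libraries were the lowest in 51 members for replicate 2, 33 for replicate 3 and 5 for replicate 1. Without BALB/c replicate 1 the count of members called against C57BL/6 was 0, the same as with it, where 1.67% of all genes were called.

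The KO-labelled libraries had lower levels of most members than C57BL/6. Of 95 members, 58 were called lower and 0 higher (edgeR, adjusted p under 0.05), where 16% of all 14415 genes were called lower and 19.2% higher. The median log2 fold change was -0.74 over the 13 mitochondrial and -0.62 over the 82 nuclear members, against 0.01 over all genes. In 76 members each KO-labelled library was below each C57BL/6 library, beside 23% of all genes. Calls by complex among the nuclear members with reads were 27 of 35 in complex I, 4 of 4 in II, 4 of 8 in III, 9 of 18 in IV and 10 of 17 in V. Of the mitochondrial members 4 of 13 were called, a share of 30.8% against 65.9% of the nuclear ones. This contrast depended on the setting. By DESeq2, 11 of 13 mitochondrial and 63 of 82 nuclear members were lower, where 37.6% of all genes were called in either direction. Without C57BL/6 replicate 2 they were 10 of 13 and 63 of 82, beside 30.7% of all genes. The difference between the genomes in the share called was not tested. With all libraries, 35.2% of all genes were called in either direction. Without C57BL/6 replicate 3 the count of members called was 37, and 24.1% of all genes were called. Without KO-labelled replicate 3 it was 32, beside 22.1% of all genes. Without BALB/c replicate 1, which enters the shared estimate of spread, 64 members were lower and 2 higher, beside 35.3% of all genes in either direction.

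Against BALB/c the count was larger. Of the 95 members, 80 were called lower and 0 higher, where 17.4% of all genes were called lower and 19.9% higher. The median log2 fold change was -1.28 over the mitochondrial and -0.82 over the nuclear members, against 0.01 over all genes. Of the nuclear members with reads, 32 of 35 were lower in complex I, 4 of 4 in II, 8 of 8 in III, 13 of 18 in IV and 12 of 17 in V, and 11 of the 13 mitochondrial ones, all but mt-Atp8 and mt-Nd6. In 88 members no BALB/c library overlapped with a KO-labelled library, beside 24% of all genes. Without BALB/c replicate 1, 74 members were lower and Cox6a1 was higher, beside 30% of all genes called in either direction (37.3% with all libraries). The 2 comparisons share the KO-labelled libraries, and 55 members were lower in both, 25 against BALB/c only, and Ndufa12, Atp5g1 and Atp5a1 against C57BL/6 only.

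**Figure D3:**
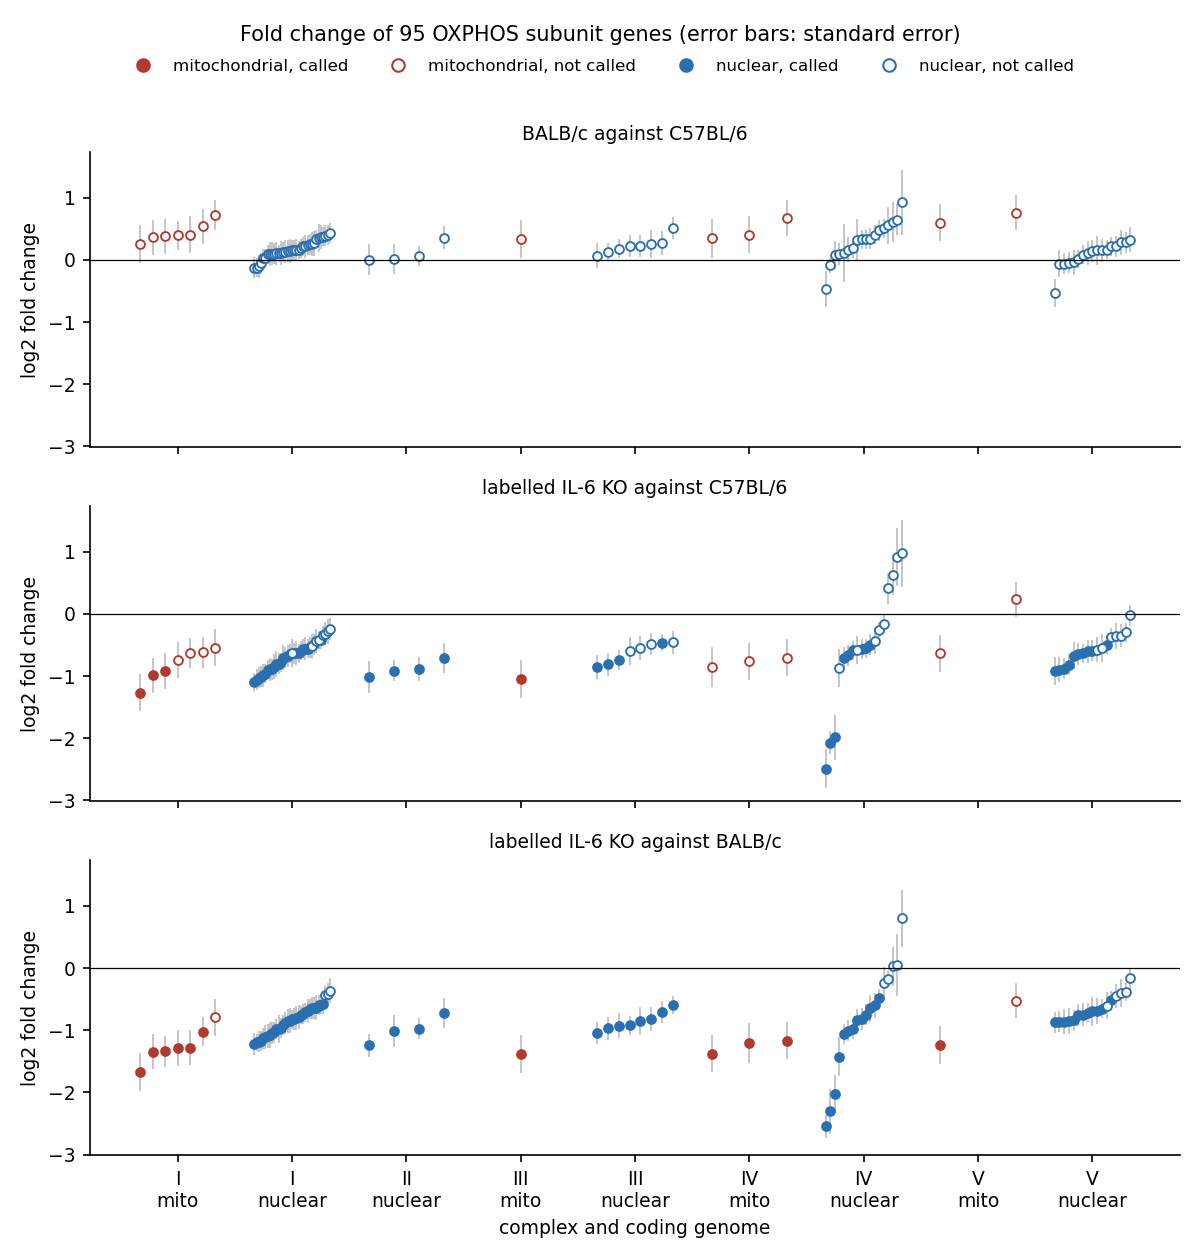
Log2 fold change ± standard error (y axis) of the 95 members with reads, grouped by complex and coding genome (x axis) and sorted within each group, for 3 comparisons. Filled points passed an adjusted p of 0.05. No point is filled in the top panel, 58 are in the middle one and 80 in the bottom one, all of them below 0, and the 3 lowest points in the nuclear part of complex IV are Cox6a2, Cox8b and Cox7a1.

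Complex I is the entry point for NADH and has the most subunits. Among its mitochondrial members, mt-Nd2 had 3471, 3085 and 5951 CPM in C57BL/6 skin, 6807, 5197 and 4583 in BALB/c, and 1909, 1762 and 1528 in KO-labelled skin. The last group lay below the other 2, which overlapped. It was lower by -1.27 ± 0.30 log2 units than in C57BL/6 (edgeR adjusted p = 0.0101) and by -1.67 ± 0.30 than in BALB/c (adjusted p = 0.00293). mt-Nd4 (-0.99 ± 0.28, adjusted p = 0.0224) and mt-Nd1 (-0.91 ± 0.29, adjusted p = 0.0357) were also called against C57BL/6. Both calls were lost with a replicate block, with the muscle covariate and without C57BL/6 replicate 3, KO-labelled replicate 1 or KO-labelled replicate 3, and that of mt-Nd1 in 8 of 19 alternatives in all. mt-Nd3, mt-Nd4l and mt-Nd5 had values of -0.62, -0.63 and -0.74 there, with adjusted p of 0.0783, 0.0647 and 0.0684, and were called against BALB/c. With unique exon reads, mt-Nd4l was instead called higher in KO-labelled skin, at 5.98 against C57BL/6 and 4.73 against BALB/c, and mt-Nd3 was no longer called against BALB/c (-0.92). mt-Nd6, the only one encoded on the light strand, was called in neither (-0.54 and -0.79, adjusted p = 0.19 and 0.0652).

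Among the nuclear subunits of complex I, Ndufa6, an accessory subunit, was at 95.6, 101.4 and 123.3 CPM in C57BL/6 skin, 119.7, 117.2 and 107.2 in BALB/c, and 55.8, 45 and 49.5 in KO-labelled skin. The spread within each group was small beside the gap, and the log2 fold changes were -1.09 ± 0.14 (edgeR adjusted p = 7e-04) and -1.20 ± 0.14 (adjusted p = 4.91e-04). Ndufa5, of the matrix arm, was at 65.5, 57.4 and 86.3 CPM in C57BL/6 skin, 72.3, 85.8 and 75.9 in BALB/c, and 35.2, 29.1 and 36.1 in KO-labelled skin, the lowest nuclear value of complex I against BALB/c (-1.22 ± 0.17). At the other end of the called ones were Ndufa7 against C57BL/6 (-0.42 ± 0.15, adjusted p = 0.0488, lost in 11 of 20 alternatives) and Ndufa11 against BALB/c (-0.58 ± 0.15, adjusted p = 0.0151). Of the catalytic core, Ndufs1, the largest iron-sulfur subunit, had -0.81 ± 0.21 against C57BL/6 and -1.07 ± 0.21 against BALB/c, while Ndufv1, which binds NADH, had -0.63 ± 0.22 (adjusted p = 0.053) and -0.98 ± 0.23 (adjusted p = 0.00898). Ndufc2 and Ndufs8 were called in neither.

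Shared reads or overlaps touch part of complex I. Ndufa13 (79.2% unique), Ndufa12 (65.7%), Ndufs5 (58.6%) and Ndufb4 (12.8%) were under the 80% mark. Against C57BL/6 they had log2 values of -1.01, -0.56, -0.42 and -0.90, all but Ndufs5 called. The longest match of Ndufb4 was Ndufb4c, identical over 390 bases, and that of Ndufs5 was the predicted gene BC002163, at 99.4% identity over 319 bases. The exons of Ndufa13 overlap the antisense gene Tssk6 by 375 bases and those of Ndufb5 overlap Mrpl47 by 616, and the strandedness of the counts is not given in the sources used here. In all, 39 of the 103 members have exons that overlap another gene's on either strand, so their values are uncertain to that extent.

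Complex II, succinate dehydrogenase, also works in the citric acid cycle and has no mitochondrially encoded part. All 4 genes were lower in KO-labelled skin in both comparisons. Sdha, the flavoprotein that oxidises succinate, had 419.4, 344.4 and 562.6 CPM in C57BL/6 skin, 613.2, 368.0 and 344.3 in BALB/c, and 219.2, 219.1 and 216.7 in KO-labelled skin. BALB/c replicate 1 was well above its group, and the KO-labelled libraries were nearly equal. The log2 fold change was -1.02 ± 0.25 against each strain (edgeR adjusted p = 0.0132 and 0.0128). Sdhb, the iron-sulfur subunit, had -0.71 ± 0.24 (adjusted p = 0.048) and -0.72 ± 0.24 (0.0425). These calls of Sdhb were narrow and were lost in 9 of 20 alternatives against C57BL/6 and in 7 of 20 against BALB/c, there without any 1 of the 6 libraries compared and with the muscle covariate. The membrane anchors Sdhc and Sdhd had -0.91 ± 0.17 and -0.89 ± 0.19 against C57BL/6 and -0.97 ± 0.17 and -1.25 ± 0.19 against BALB/c. Between BALB/c and C57BL/6 the 4 genes had values of -0.00 to 0.36, none called.

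In complex III, mt-Cytb, the only mitochondrial subunit, had 6563, 5868 and 10861 CPM in C57BL/6 skin, 12578, 8781 and 8049 in BALB/c and 4073, 3798 and 3397 in KO-labelled skin. Its fold changes were -1.05 ± 0.31 (edgeR adjusted p = 0.0265) and -1.38 ± 0.31 (adjusted p = 0.00804) on the log2 scale, and nearly all its reads were unique. The call against C57BL/6 was lost with the muscle covariate and without C57BL/6 replicate 3, KO-labelled replicate 1 or KO-labelled replicate 3. With a replicate block, 1 of the 13 mitochondrial members was called lower against C57BL/6, where 29.7% of all genes were called in either direction. Of the nuclear subunits, Uqcrc1, a core protein, had the lowest called value against C57BL/6 (-0.85 ± 0.20) and Uqcrh, the hinge protein, the highest (-0.46 ± 0.14, lost in 6 of 20 alternatives). Against BALB/c these places were held by Uqcrfs1, the Rieske iron-sulfur protein (-1.04 ± 0.18), and by Uqcrh (-0.59 ± 0.14). The 8 nuclear members spanned -0.85 to -0.45 against C57BL/6 and -1.04 to -0.59 against BALB/c, a narrower range than in complex IV.

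Complex IV, cytochrome c oxidase, had the widest range of all, and 3 of its subunits have a muscle form and a form found in most tissues. Cox6a2, the muscle form of subunit 6a, had 202.2, 194.8 and 361.3 CPM in C57BL/6 skin, 117.5, 220.8 and 209.4 in BALB/c, and 47.1, 47.8 and 40.1 in KO-labelled skin. Its log2 fold changes were -2.49 ± 0.31 against C57BL/6 (edgeR adjusted p = 6.51e-04) and -2.02 ± 0.30 against BALB/c (0.00129), and BALB/c replicate 1 was the lowest of the wild type libraries. Its exons overlap the antisense gene Itgad by 70 bases. Cox8b, the muscle form of subunit 8, had 134.1, 96.0 and 153.7, then 202.7, 170.5 and 159.8, then 30.7, 30.1 and 30.4 CPM in the same order of groups (-2.07 ± 0.19, adjusted p = 4.29e-04, and -2.55 ± 0.19, adjusted p = 8.27e-05). Cox7a1, the muscle form of subunit 7a, had 80.2, 39.5 and 128.5, then 109.2, 108.1 and 91.5, then 23.8, 17.9 and 21.0 CPM (-1.98 ± 0.36, adjusted p = 0.0032, and -2.30 ± 0.36, adjusted p = 0.00158). In none of the 3 did a KO-labelled library reach a wild type one, and these were the 3 members of largest absolute fold change in both comparisons.

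Their partner forms had values nearer to 0. Cox6a1 had 97.5, 94.8 and 97.3 CPM in C57BL/6 skin, 245.2, 92.5 and 102.0 in BALB/c, and 165.8, 136.8 and 145.0 in KO-labelled skin. The last group was above C57BL/6 with no overlap, yet the difference of 0.63 ± 0.32 was not called (edgeR adjusted p = 0.159), and BALB/c replicate 1 was higher still. Cox8a had 99.9, 102.8 and 103.2, then 238.2, 118.7 and 122.1, then 151.0, 120.1 and 135.9 CPM, with values of 0.41 ± 0.25 and -0.24 ± 0.25 against C57BL/6 and BALB/c (edgeR adjusted p = 0.227 and 0.483). Cox7a2 had -0.16 ± 0.15 against C57BL/6 (adjusted p = 0.445) and was called lower against BALB/c (-0.49 ± 0.15, adjusted p = 0.0308). Without BALB/c replicate 1, the library high in Ucp1 and Cidea, Cox6a1 was called higher by edgeR against C57BL/6 (0.61, adjusted p = 0.00564). Cox6a1 was then also called higher against BALB/c (0.59, edgeR adjusted p = 0.0133), and Cox8a against C57BL/6 (0.39, adjusted p = 0.0331). The Cox8a value against BALB/c was then 0.14 in place of -0.24. The Cox7a2 call against BALB/c was lost in 5 of 20 alternatives, namely with the muscle covariate and without BALB/c replicate 1, BALB/c replicate 2, KO-labelled replicate 2 or KO-labelled replicate 3.

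Within each pair, the share of the muscle form per length of exon separated the KO-labelled libraries from C57BL/6. Cox6a2 made up 68.2%, 67.9% and 79.3% of its pair in C57BL/6, 33.1%, 71.1% and 67.9% in BALB/c and 22.7%, 26.5% and 22.2% in KO-labelled skin. The low BALB/c value is that of replicate 1. Cox8b made up 65.0% ± 5.6 of its pair in C57BL/6, 63.7% ± 6.5 in BALB/c and 25.4% ± 2.0 in KO-labelled skin (SD, n = 3 each). Cox7a1 made up 57.8% ± 11.6, 60.3% ± 1.7 and 30.2% ± 0.74. The KO-labelled libraries were lowest in these 3 shares and in the muscle marker sum. Among the wild type libraries, BALB/c replicate 1 had the lowest muscle sum, 36770 CPM, and the lowest Cox6a2 and Cox8b shares (33.1% and 56.3%). C57BL/6 replicate 3 had the highest sum, 130000 CPM, and the highest shares of Cox6a2, Cox8b and Cox7a1 (79.3%, 69.3% and 67.2%). The lowest Cox7a1 share did not follow the sum. It was 44.8%, in C57BL/6 replicate 2 at 74060 CPM, while BALB/c replicate 1 had 59.0%. The part of muscle in these shares was not tested. No p is given for the shares.

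**Figure D4:**
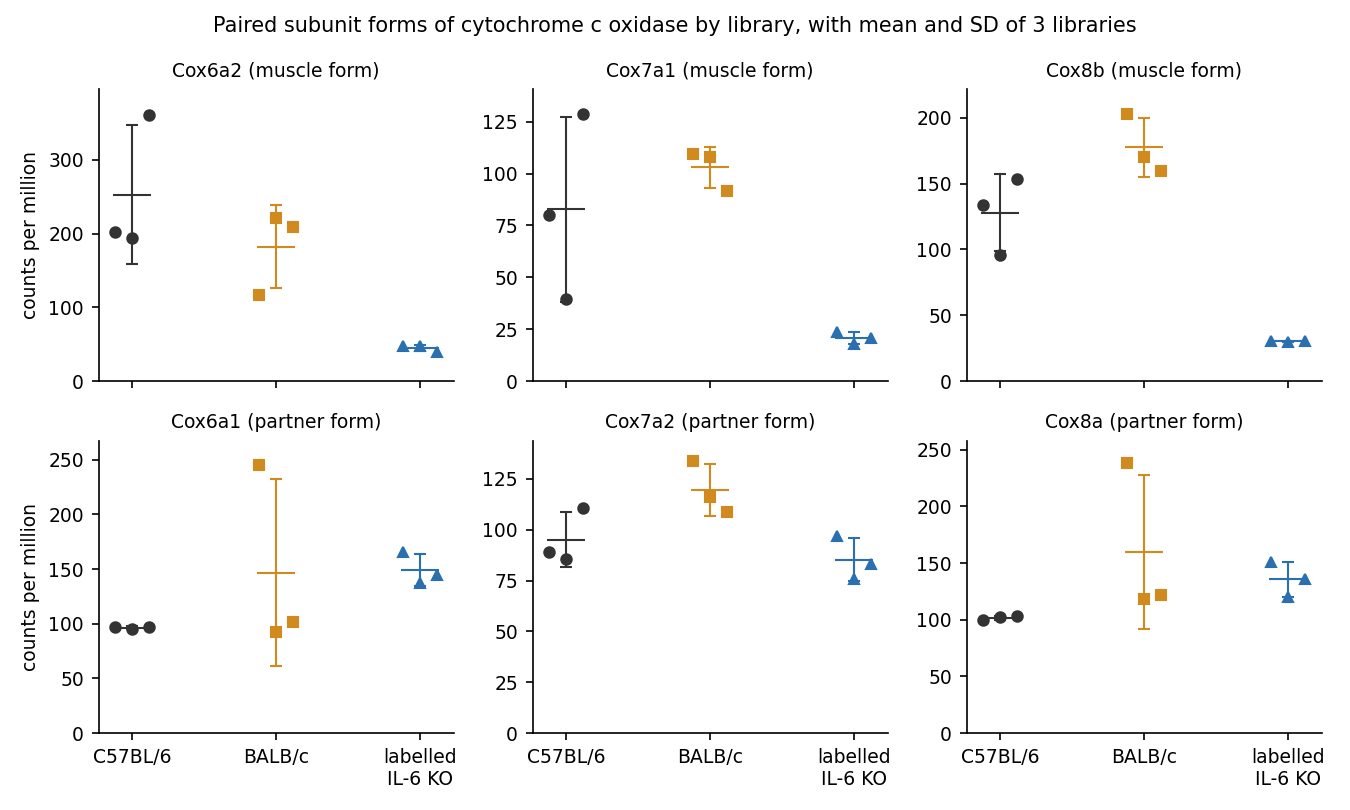
TMM-scaled CPM of the muscle forms Cox6a2, Cox7a1 and Cox8b (top row) and of their partners Cox6a1, Cox7a2 and Cox8a (bottom row), with 1 point for each library and a bar at the mean ± SD of 3 libraries. In the top row the KO-labelled libraries lie below all wild type libraries (40.1 to 47.8, 17.9 to 23.8 and 30.1 to 30.7 CPM), and in the bottom row BALB/c replicate 1 is the highest point of each panel (245.2, 133.9 and 238.2 CPM).

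The other complex IV members ranged between these. Cox4i1, the main form of subunit 4, was lower in KO-labelled skin against both strains (-0.56 ± 0.16, edgeR adjusted p = 0.0251, and -0.75 ± 0.16, adjusted p = 0.0071). Its counterpart Cox4i2, known as a form of lung and low oxygen, was at 1.30 to 5.02 CPM in the 9 libraries, with log2 values of 0.91 ± 0.46 and 0.80 ± 0.46 that were not called. Cox7b, Cox7c and Ndufa4 were called lower in both, at -0.66, -0.58 and -0.55 against C57BL/6 and -1.01, -0.99 and -1.06 against BALB/c, though only 9.79% of Cox7c reads were unique and its calls were lost with unique exon reads. The Cox4i1 and Ndufa4 calls against C57BL/6 were each lost in 5 of 20 alternatives, among them without C57BL/6 replicate 3 and without KO-labelled replicate 1 or 3. Cox6c had the highest called value against C57BL/6 (-0.50 ± 0.17), a call lost in 10 of 20 alternatives. Cox6b1 was called against BALB/c only (-0.60 ± 0.20, adjusted p = 0.0439, lost in 7 of 20 alternatives), with -0.43 against C57BL/6. Cox7a2l, a factor of supercomplex assembly, was called in neither (-0.26 and -0.17, adjusted p = 0.133 and 0.301). Cox6b2, at 0.746 to 3.34 CPM, was called in neither.

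Ndufa4l2, a paralog of Ndufa4 known to be induced at low oxygen, split the KO-labelled libraries. It was at 33.6, 79.6 and 31.2 CPM there, against 85.3, 84.1 and 95.4 in C57BL/6 and 124.2, 130.7 and 134.3 in BALB/c. Replicate 2 was near the C57BL/6 level and the other 2 far below it. It was called lower against BALB/c (-1.43 ± 0.31, edgeR adjusted p = 0.00691) and not against C57BL/6 (-0.87 ± 0.31, adjusted p = 0.0523). The mitochondrial subunits mt-Co1, mt-Co2 and mt-Co3 had values of -0.86, -0.76 and -0.70 against C57BL/6, none called (adjusted p = 0.0624, 0.0714 and 0.0899), and -1.21, -1.17 and -1.38 against BALB/c, all called. For mt-Co2 and mt-Co3 these values rest on total reads: with the few unique reads in their place the sign against C57BL/6 turned, to 2.41 and 4.16, both called higher, and against BALB/c neither was called (-0.25 and 0.57). The calls of mt-Co1 and mt-Co2 against BALB/c were also lost without KO-labelled replicate 3.

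In complex V, the alpha subunit Atp5a1 had 1094, 992 and 1545 CPM in C57BL/6 skin, 1346, 1103 and 1026 in BALB/c and 833, 656 and 793 in KO-labelled skin. It was called lower against C57BL/6 (-0.67 ± 0.22, edgeR adjusted p = 0.0387) and not against BALB/c (-0.61 ± 0.22, adjusted p = 0.0535), although the groups did not overlap in either. The first call was lost in 9 of 20 alternatives, and the second value was called in 9 of 20. Atp5b, the beta subunit, was called against BALB/c only (-0.70 ± 0.23, adjusted p = 0.0387, lost in 7 of 20 alternatives, and -0.55 ± 0.23 against C57BL/6). Atp5l, subunit g, had the highest called value against C57BL/6 (-0.49 ± 0.15, with 49.85% unique reads and the call kept in 12 of 20 alternatives), and Atp5j2, subunit f, and Atp5h, subunit d, the lowest and highest against BALB/c (-0.87 ± 0.17 and -0.51 ± 0.15).

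The rotor ring of complex V is made of 1 protein encoded by 3 genes, and they differed. Atp5g1 was called lower against C57BL/6 (-0.92 ± 0.23, edgeR adjusted p = 0.0125) and not against BALB/c (-0.40 ± 0.23, adjusted p = 0.194). Atp5g2 and Atp5g3 were called in neither, at -0.02 and -0.35 against C57BL/6 and -0.17 and -0.45 against BALB/c. Per length of exon Atp5g1 made up 12.9% ± 1.3 of the 3 in C57BL/6, 8.67% ± 1.10 in BALB/c and 8.38% ± 0.53 in KO-labelled skin, with C57BL/6 above both other groups in each library. Unique reads were 48.9% for Atp5g1 and 0.952% for Atp5g2, while all reads of Atp5g3 were unique. Atp5g2 aligned to the predicted gene Gm10175 without a mismatch over 127 bases.

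The neighbours mt-Atp8 and mt-Atp6, which overlap by 43 bases on 1 strand of the mitochondrial genome, gave unlike values. mt-Atp8 had 561, 518 and 947 CPM in C57BL/6 skin, 1496, 1052 and 881 in BALB/c, and 845.2, 840.5 and 697.4 in KO-labelled skin. It was the only mitochondrial member with a value above 0 against C57BL/6 (0.23 ± 0.28, edgeR adjusted p = 0.54), and it was not called against BALB/c (-0.53 ± 0.28, adjusted p = 0.165). mt-Atp6 had -0.64 ± 0.30 (adjusted p = 0.126) and -1.23 ± 0.30 (adjusted p = 0.0117). Only 0.218% of mt-Atp6 reads were unique, and on those it was called higher against C57BL/6 (1.71) and was not called against BALB/c (-0.32). The mt-Atp6 call against BALB/c was also lost without KO-labelled replicate 3. Reads of mt-Atp8 per 100 reads of mt-Atp6 came to 11.1, 11.2 and 11.3 in C57BL/6, 12.99, 12.8 and 11.6 in BALB/c, and 20.01, 21.1 and 20.4 in KO-labelled skin. The last group was above the other 6 libraries with no overlap, and its spread of 0.57 (SD) was small beside the gap.

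Each mitochondrial member was also read as a share of the sum of the 13. mt-Co1 held 31.1% ± 0.51, 29.2% ± 0.44 and 30.4% ± 0.36 of the mitochondrial reads in C57BL/6, BALB/c and the KO-labelled libraries. mt-Nd2 held 5.62% ± 0.24, 5.55% ± 0.13 and 4.19% ± 0.14, so that the KO-labelled libraries lay below the others. mt-Atp8 held 0.914% ± 0.033, 1.14% ± 0.093 and 1.92% ± 0.11. mt-Co3 held 11.2% ± 0.12, 13.3% ± 0.48 and 12.2% ± 0.26, highest in BALB/c. A share of a sum can shift because another member of the sum does, and these shares were not tested.

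Genes that work with the OXPHOS subunits were read from lists written from general knowledge. Of 46 assembly factors, 15 were lower and 0 higher in KO-labelled skin against C57BL/6, and 21 and 0 against BALB/c, with medians of -0.35 and -0.54. Over all genes, 16% were lower and 19.2% higher against C57BL/6, and 17.4% and 19.9% against BALB/c, and the counts of this and the lists below stand beside these shares. Uqcc3, an assembly factor of complex III, had 26.4 ± 3.6 CPM in C57BL/6 skin, 27.6 ± 2.9 in BALB/c and 13.2 ± 1.1 in KO-labelled skin (SD, n = 3). Ecsit, of complex I, was lower by -0.94 ± 0.15 against C57BL/6, and Cox14, of complex IV, by -0.78 ± 0.11 against BALB/c. Of 25 tested electron carriers and other chain-linked genes, 7 were lower and 3 higher against C57BL/6 and 14 lower and 1 higher against BALB/c. Coq8a and Coq9, of coenzyme Q synthesis, had -1.65 ± 0.22 and -1.52 ± 0.22 against C57BL/6 and -1.55 ± 0.22 and -1.69 ± 0.22 against BALB/c.

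The citric acid cycle and pyruvate dehydrogenase list, which feeds NADH to the chain, had 15 genes lower and 1 higher of 23 against C57BL/6 and 19 and 1 against BALB/c, with medians of -0.82 and -1.18. The kinases of pyruvate dehydrogenase went both ways: Pdk2 was at 196.7 ± 32.1 CPM in C57BL/6 skin, 160.3 ± 17.1 in BALB/c and 39.5 ± 2.9 in KO-labelled skin, and Pdk3, the 1 higher gene, at 13.2 ± 1.7, 11.4 ± 1.4 and 31.9 ± 7.5. Glycolysis had 13 lower and 1 higher of 18 against C57BL/6 and 12 and 1 against BALB/c, with medians of -1.35 and -1.25. Pfkm, the muscle form of phosphofructokinase, had -2.51 ± 0.31 and -2.30 ± 0.31, Hk2 had -1.53 ± 0.18 against C57BL/6, and Ldhb had -1.84 ± 0.17 against BALB/c. The muscle marker list itself had 19 of 20 and 18 of 20 lower, with medians of -2.63 and -1.996.

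Of 16 genes that copy and read mitochondrial DNA, 1 was lower against C57BL/6 and 3 against BALB/c, 0 were higher, and the medians were 0.01 and -0.26. The shares called, 6.25% and 18.8%, were below the 35.2% and 37.3% of all genes. Tfb2m, a transcription factor of the mitochondrial genome, was the one called against C57BL/6 (-0.46 ± 0.12, edgeR adjusted p = 0.0189) and had -0.47 ± 0.12 against BALB/c, where Tefm, the elongation factor, was called as well (-0.75 ± 0.19). Among 16 regulators of mitochondrial biogenesis, 3 were lower and 3 higher against C57BL/6, which is 37.5% called, near the 35.2% of all genes, and 7 lower and 3 higher against BALB/c, which is 62.5% beside 37.3%. Prkaa2, a catalytic subunit of AMP-activated kinase known from muscle, had -2.17 ± 0.23 and -2.05 ± 0.23. Sirt1, a deacetylase, was higher against C57BL/6 (1.11 ± 0.24) and had 0.67 ± 0.24 against BALB/c, not called (adjusted p = 0.0522). Esrra, a nuclear receptor of respiratory genes, was lower against BALB/c (-0.63 ± 0.15). Between BALB/c and C57BL/6 no gene of these 6 lists was called by edgeR.

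Markers of some other cells differed beside the members, and those of others did not. The 15 hair shaft and matrix markers were all higher in KO-labelled skin in both comparisons, with summed levels of 14280 to 59830 CPM there, 26.7 to 602.1 in C57BL/6 and 23.95 to 38.2 in BALB/c, where Krt33b and Krt81 were at 0. The 5 melanocyte markers were all higher too (63.9 to 810.9 CPM, against 14.9 to 22.4 and 8.65 to 15.6). Of 6 endothelial markers, 5 were lower against C57BL/6 and 2 against BALB/c, beside 16% and 17.4% of all genes, and their sums were 139.3 to 176.9 CPM in KO-labelled skin, 281.3 to 461.2 in C57BL/6 and 139 to 281.8 in BALB/c. Of 9 white adipocyte markers, 0 were called against C57BL/6 by edgeR (3 at an unadjusted p under 0.05) and 4 were lower against BALB/c. Their sums were 555.3 to 2143 CPM in KO-labelled skin, 2323 to 3727 in C57BL/6 and 2054 to 6308 in BALB/c. For both lists KO-labelled skin lay below C57BL/6 and overlapped with BALB/c. Of 6 basal epidermis markers, 3 were lower against C57BL/6 and 1 against BALB/c, beside 16% and 17.4% of all genes, and 0 were higher in either. Their sums were 5025 to 8788 CPM in KO-labelled skin and 7102 to 12210 in the other 6 libraries. Of 6 fibroblast and 6 macrophage markers, 0 were called in either comparison. Of 7 suprabasal epidermis markers, 2 were higher against C57BL/6, and 1 was higher and 1 lower against BALB/c. Of 5 smooth muscle markers, 2 were lower against C57BL/6, and 2 were lower and 1 higher against BALB/c. Of all genes, 19.2% and 19.9% were higher in the 2 comparisons. The part of a different mix of cells in the lower OXPHOS levels was not tested.

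With the summed muscle markers as a covariate in the model, no member was called in any of the 3 comparisons, and 0 of 14415 genes were called against C57BL/6 and 0.166% against BALB/c. The median log2 fold change against C57BL/6 was then -0.58 over the mitochondrial and -0.22 over the nuclear members, and against BALB/c it was -1.15 and -0.57. Cox6a2 stood at 0.19 against C57BL/6 in that model, in place of -2.49. Since the KO-labelled libraries had a muscle sum below all others, with no overlap, group and muscle content cannot be told apart in these 9 libraries.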

How the data were processed

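Total RNA from whole skin was made into TruSeq libraries, per the labels' protocols, and the deposited tables give read counts per gene on GRCm38, per the submitters' processing notes; neither aligner nor strand setting is given in the sources used here. Of these, the deposited counts of total exon reads were used, since unique reads all but vanish for mitochondrial genes with nuclear copies. In 9 tables of 49585 genes, 14415 genes passed filterByExpr (minimum count 10, minimum total 15). edgeR 4.0.16 (R 4.3.3) fitted 1 quasi-likelihood model to all 9 libraries with TMM scaling, with 6 residual degrees of freedom and Benjamini-Hochberg adjustment over all genes tested. A gene was called at an adjusted p under 0.05, and errors of fold changes are standard errors. Depth was 3843953 to 6882193 exon reads per library. Counts were simulated with 100 genes changed 2-fold, 100 changed 4-fold and all others unchanged. For BALB/c against C57BL/6, 51% and 96% of these were recovered, for KO-labelled libraries against C57BL/6 49% and 95%, and for KO-labelled libraries against BALB/c 42% and 98%. In the data 35.2% and 37.3% of genes were called in the last 2 comparisons, so the simulated recovery need not hold there. Copies were found with blastn 2.17.0 and overlaps with bedtools 2.31.1 on GENCODE gene models. Alternatives were other scalings, filters, read columns, DESeq2 1.42.0, a replicate block, a muscle covariate and leaving out each library. Named were the 13 mitochondrial members, tissue forms and partners, complex II, the called extremes of each complex, the first 2 called genes of each list by p-value and members under 80% unique reads. Atp5a1, Atp5b, Ndufs1, Ndufv1, Ndufc2, Ndufs8, Ucp1 and Cidea were named after their values were seen. The members and lists were chosen with earlier results of these data known.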

Additional observations from a re-analysis of the deposited data

Results flagged for a closer look

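Some reads outside the exon counts of the members were above their level in C57BL/6. Reads of the mitochondrial ribosomal RNA genes mt-Rnr1 and mt-Rnr2 came to 1770, 2787 and 1109 CPM of exon reads in BALB/c, with a mean of 1889, to 767, 901 and 656 in C57BL/6, and to 905, 556 and 628 in the KO-labelled libraries. BALB/c was above both other groups, and the KO-labelled libraries overlapped with C57BL/6.

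Reads assigned to nuclear copies of mitochondrial genes were few but differed by group. In the KO-labelled libraries, Gm10925, the copy of mt-Atp6, had 14, 25 and 14 reads (mean 17.7), Gm28437, the copy of mt-Co3, had 1, 3 and 5 (mean 3), and Gm28661, the copy of mt-Co2, had 2, 4 and 1 (mean 2.33). These 3 copies had 0 reads in the other 6 libraries. Gm29216, a copy of part of mt-Co1, had 5, 8 and 5 reads (mean 6) there, against 1, 1 and 0 in C57BL/6 and 8, 4 and 1 in BALB/c.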

How the results depend on the processing

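Counts of members called in either direction in the KO-labelled libraries stayed within 1.5 times under other scalings, filters, variance models, DESeq2 and read columns, and became 0 in both comparisons with the muscle covariate. Calls of higher members entered them: with unique exon reads 60 were lower and 4 higher against C57BL/6 and 76 and 1 against BALB/c, and with the Expression value 70 and 5, and 79 and 5. Leaving out 1 library, 22.1% to 46.1% of all genes were called against C57BL/6 and 22.5% to 47.8% against BALB/c in the KO-labelled libraries. For BALB/c against C57BL/6 that share was 1.13% to 6.62%. The members called in either direction then numbered 32 to 73 against C57BL/6, 62 to 85 against BALB/c, and 0 to 1 for BALB/c against C57BL/6. That last count, 0 by edgeR, was 1 with only the 2 groups compared, 2 by DESeq2, 5 with unique exon reads (mt-Co2, mt-Co3, mt-Atp6 and mt-Nd4l higher, Atp5g1 lower) and 4 with the Expression value column. With unique exon reads the mitochondrial share was 4.31% in C57BL/6, 6.10% in BALB/c and 2.61% in KO-labelled libraries, and the nuclear share 1.76% in BALB/c and 1.07% in KO-labelled libraries. With the Expression value column the mitochondrial share was 4.16% in C57BL/6 and 5.88% in BALB/c, and the nuclear share in BALB/c 1.77%. Leaving out 1 library gave mitochondrial shares of 5.88% to 7.51%, 8.75% to 10.7% and 4.23% to 4.47%, and nuclear shares of 1.26% to 1.44%, 1.51% to 1.65% and 0.971% to 0.993%, for C57BL/6, BALB/c and KO-labelled libraries. Same-numbered libraries of different groups had correlations of -0.21 to 0.06, and differently numbered ones of -0.09 to 0.14. These are correlations of deviations from means of 3 libraries, which cannot settle whether the numbers pair mice. With a replicate block, 0 members were called for BALB/c against C57BL/6, 46 against C57BL/6 (45 of the 58 kept) and 76 against BALB/c. The shares of all genes called were then 1.77%, 29.7% and 31.6%.

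Of 3279 values for 166 named gene results under 20 alternatives, 2905 kept direction and call, 205 lost a call, 87 gained one and 82 changed sign. The cause was not tested, except that the Expression value holds total reads in the KO-labelled tables and fewer multi-mapped reads in the others. For BALB/c against C57BL/6, Sdha (-0.0006) was 0.011 by DESeq2, with RLE scaling and with no filter, 0.0063 without mitochondrial genes, 0.0125 with unique exon reads, 0.017 with only those groups, 0.0008 without muscle markers and 0.029 with the Expression value. Cox7c was -0.028 with unique exon reads. The muscle covariate gave Cox6a1 -0.16, Cox6a2 0.20, Cox7a2l 0.0087, Ndufa12 0.094, Ndufa13 0.084 and Sdhb -0.025. Leaving out 1 library gave Atp5g3 -0.0775 to 0.28, Cox4i2 -0.049 to 0.25, Cox7a1 -0.0199 to 0.78, Ndufa12 -0.26 to 0.0101, Ndufa13 -0.26 to 0.079, Sdha -0.30 to 0.21, Sdhb -0.16 to 0.28, Sdhc -0.033 to 0.25 and mt-Nd6 -0.0125 to 0.61.

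For KO-labelled libraries against C57BL/6, unique exon reads gave mt-Atp6 1.71, mt-Co2 2.41, mt-Co3 4.16 and mt-Nd4l 5.98. The Expression value gave Atp5g2 0.31, mt-Atp6 9.43, mt-Co2 10.74, mt-Co3 13.05, mt-Nd3 5.74 and mt-Nd4l 7.77. Atp5g2 was 0.0025 without muscle markers and -0.15 to 0.12 leaving out 1 library. The muscle covariate gave Atp5g1 0.86, Atp5g2 0.52, Atp5g3 0.65, Atp5l 0.041, Cox6a1 -1.79, Cox6a2 0.19, Cox6b2 -0.20, Cox7a2l 0.11, Cox7c 0.082, Cox8a -1.38, Ndufa12 0.28, Sirt1 -0.22 and mt-Nd6 0.0045.

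For KO-labelled libraries against BALB/c, unique exon reads gave Atp5g1 0.21, Cox6a1 -0.0065, mt-Co3 0.57 and mt-Nd4l 4.73, and no filter gave Cox6a1 -0.012. The Expression value gave Atp5g2 0.20, Cox6a1 -0.11, Cox6b2 -0.081, mt-Atp6 7.39, mt-Co2 8.07, mt-Co3 9.44, mt-Nd3 5.60 and mt-Nd4l 6.50. The muscle covariate gave Atp5g1 0.93, Atp5g2 0.24, Atp5g3 0.28, Cox6a1 -1.62, Cox6b2 -0.76, Cox7a2l 0.10 and Ndufa12 0.18. Leaving out 1 library gave Cox6a1 -0.24 to 0.59, Cox6b2 -0.30 to 0.53 and Cox8a -0.43 to 0.14.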
